A study of Mus musculus with 123 samples.

Results

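Cirbp and Rbm3, the mouse genes for the cold-inducible RNA-binding protein and its relative RNA-binding motif protein 3, were followed in the liver over 1 daily cycle. They are the 2 genes of that name among the 15398 genes of the table, and each has 1 row. Liver RNA came from mice that received a diet high in fat (HFD) or low in fat (LFD), kept in a photoperiod called Equal, Long or Short light, and was taken at 6 zeitgeber times (ZT0, 4, 8, 12, 16 and 20) set 4 h apart. Diet, photoperiod and time make 36 groups, 21 of them with 3 libraries and 15 with 4, for 61 HFD and 62 LFD libraries in all. The labels give no hours of light, no event that ZT0 marks, and no strain, sex, age or genotype of the mice. They also name no animals, so that a p-value here reflects how far libraries spread, which may be technical in part.

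Cirbp and Rbm3 are small, glycine-rich proteins with an RNA recognition motif, and their levels rise when cells are mildly cooled and fall when they are warmed. Body temperature of mice runs through a daily rhythm, and in cultured cells temperature cycles of that size are enough to drive Cirbp messenger RNA. Cirbp protein binds the Clock transcript, among others, while heat shock genes respond to temperature in the opposite direction, through the factor Hsf1. No body temperature is among the measurements used here, so the 2 genes are described by their own levels and beside the heat-inducible genes.

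Cirbp (ENSMUSG00000045193) lies on chromosome 10 of GRCm38, from 80165985 to 80172786 on the forward strand. Rbm3 (ENSMUSG00000031167) lies on the X chromosome, from 8138975 to 8145880 on the reverse strand. The annotation places the antisense gene Rbm3os, from 8145429 to 8147964, across the start of Rbm3. The kit marks strand, but no source used here gives the strand setting of the counting, so reads of the antisense gene cannot be told apart from those of Rbm3 where they overlap. The stretch upstream of Cirbp is shown because its messenger RNA level is what the results describe. It comes from the RefSeq promoter table (GRCm38.p6), which holds 2 windows for Cirbp, and is the part at chr10:80167589-80167777, forward strand, that precedes the RefSeq transcript start at 80167839, with capitals for the one match to the GC box GGGGCGG, here on the reverse strand at 80167711. The stretch lies within the annotated span of Cirbp, which other transcripts extend upstream, and outside its exons.

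Cirbp upstream: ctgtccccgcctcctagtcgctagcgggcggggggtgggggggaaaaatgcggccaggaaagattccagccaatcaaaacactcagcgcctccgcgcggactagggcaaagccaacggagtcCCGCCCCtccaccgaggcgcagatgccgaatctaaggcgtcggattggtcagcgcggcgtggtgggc

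The E-box CACGTG, the motif bound by the clock factors, had 0 matches on either strand in the whole window of 300 bases. The other Cirbp window, at chr10:80167921-80168220 with its transcript start at 80168171, also held 0 matches to CACGTG, but 3 to GGGGCGG. Of 32851 such mouse windows, 7.15% held CACGTG and 23.2% held GGGGCGG, searched on both strands, and the 2 motifs do not overlap each other. A match is a description of the letters and was not tested as a site.

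Library depth had a median of 24.06 M reads (M, mega) and ran from 13.97 M to 39.09 M. Hepatocyte markers (Alb, Apoa1, Ttr, Serpina1c and Cps1) averaged 12.34 to 13.19 on the log2 scale of read counts scaled to the depth of the library (CPM) and were high in all libraries, as the label liver requires. Markers of pancreas acinar cells averaged over 4 in 14 libraries, reaching 8.31, and those of skeletal muscle in 8. These make 20 libraries in all, 14 of them LFD and 6 HFD, and the rhythm, level and peak results of the 2 genes, with their correlations to the heat-inducible genes, were also computed without them. Markers of Kupffer cells averaged 4.22 to 6.48, those of blood 3.90 to 5.89, and those of adipocytes at most 2.08. Fewer cells of a type and less RNA per cell cannot be told apart in such bulk samples.

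Cirbp messenger RNA averaged 4.16 log2 CPM and ranged from 2.99 to 5.16 over all libraries, on 175 to 1038 reads. Rbm3 averaged 4.84 log2 CPM, with a range of 4.14 to 5.59 on 323 to 1221 reads. Libraries of the same group differed by a pooled SD of 0.38 for Cirbp and 0.18 for Rbm3, so that the spread within a group was wider for Cirbp. The lowest Cirbp group was HFD, Long light, ZT20 at 3.61 and the highest LFD, Short light, ZT4 at 4.99, a 2.60-fold range of group means. For Rbm3 the extremes were HFD, Long light, ZT4 at 4.39 and LFD, Short light, ZT8 at 5.34, a 1.93-fold range.

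The first question was whether each gene followed the day in each of the 6 combinations of diet and photoperiod, called arms here, of 20 or 21 libraries each. A cosine and a sine of 24 h were fitted per arm, and the amplitude is the height of the peak above the mean on the log2 scale. The p of each arm rests on the spread of the gene over all arms. The SE of amplitude and peak is a jackknife within the arm alone, so that p and SE need not match. Rbm3 was rhythmic in all 6 arms at an adjusted p (limma, Benjamini-Hochberg over 14397 genes) under 0.05, which holds for 592 genes, 4.11% of those tested. Cirbp passed in 2 arms, LFD in Long light and LFD in Short light. Beside these, the share of all genes called was 20.9%, 23.6% and 27.1% for LFD in Equal, Long and Short light, and 16.5%, 21.8% and 14.1% for HFD in the same order. The times set against each other below were picked for their high and low values. A lack of overlap between them is thus a description and no test of a rhythm, and its share over all genes was not counted.

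In LFD livers under Equal light, Rbm3 ran from 4.62, 4.62 and 4.83 log2 CPM in the libraries of ZT0 up to 5.35, 5.24, 5.26 and 4.84 at ZT12 and 4.90, 5.14, 5.53 and 5.01 at ZT16. Every library of ZT12 and ZT16 lay above every library of ZT0. The fitted amplitude was 0.25 (SE 0.049), the peak fell at ZT 13.6 (SE 0.66 h), and the peak was 1.41-fold above the trough (adjusted p = 0.00164). HFD livers under Equal light had 4.37, 4.47 and 4.39 at ZT0, against 4.56, 5.09 and 4.90 at ZT12. All ZT12 libraries were again higher than all ZT0 libraries, and the amplitude of 0.22 (SE 0.052) peaked at ZT 10.9 (SE 0.77 h, adjusted p = 0.0125). That last call was lost without replicates numbered 1 (adjusted p = 0.0970) or 2 (0.206), with 6 free means in place of the cosine (0.0786), and with an added cosine of 12 h (0.0540). Here and below, leaving out replicates of a number takes a library from each group that holds it, so such fits rest on fewer libraries. The added cosine also moved the HFD peak to ZT 13.55 (SE 3.76 h).

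Under Long light the highest Rbm3 group was ZT16 in both diets. In LFD livers the libraries stood at 5.06, 5.48, 5.22 and 5.16 at ZT16 and at 5.13, 5.37 and 4.96 at ZT20, against 4.80, 4.83, 4.60 and 4.55 at ZT4 and 4.86, 4.49, 4.73 and 4.77 at ZT8. No library of the late pair of times overlapped the early pair. The amplitude was 0.28 (SE 0.043) with a peak at ZT 17.6 (SE 0.55 h, adjusted p = 7.61e-05). HFD livers read 5.08, 4.89 and 4.78 at ZT12, 5.15, 5.29 and 4.83 at ZT16, 4.79, 4.91 and 5.0 at ZT20 and 4.45, 4.58 and 4.14 at ZT4, with an amplitude of 0.32 (SE 0.053), the largest of Rbm3, and a peak at ZT 15.9 (SE 0.41 h, adjusted p = 6.19e-05).

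Under Short light Rbm3 was high early instead. LFD livers held 5.47, 5.18 and 5.38 at ZT8, above the 4.64, 5.13, 4.64 and 4.50 of ZT20, and 1 library of ZT16 stood high at 5.59 while the other 3 read 4.76, 5.11 and 5.04. The amplitude was 0.22 (SE 0.052) and the peak fell at ZT 9.28 (SE 0.97 h, adjusted p = 0.00493, or 0.196 without replicates numbered 1). With an added cosine of 12 h the LFD peak moved to ZT 6.6 (SE 0.85 h). HFD livers had 4.79, 4.75, 5.07 and 5.13 at ZT8 against 4.56, 4.30 and 4.51 at ZT20, again without overlap. Their amplitude was 0.22 (SE 0.041) with a peak at ZT 7.15 (SE 0.67 h, adjusted p = 0.00745), a call lost without replicates numbered 1 (0.0616) or 3 (0.0518), with free means (0.0800) and with an added cosine of 12 h (0.0545). The plot of Rbm3 by time shows these values.

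**Figure D1:**
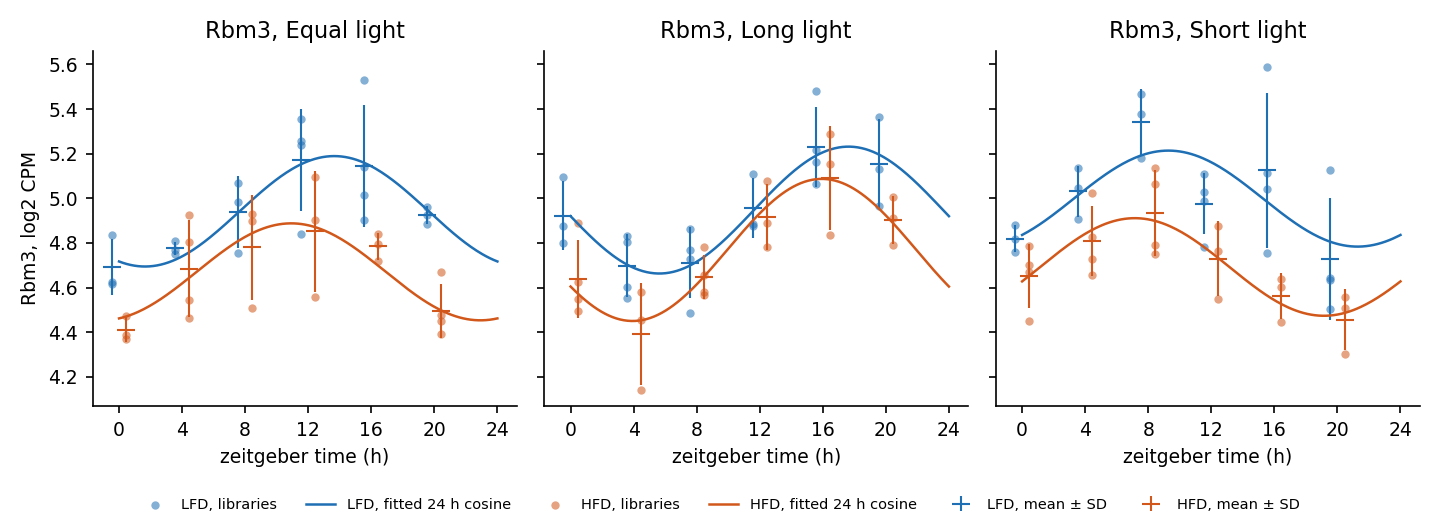
Rbm3 level (log2 CPM) against zeitgeber time (h) in Equal, Long and Short light, with a point per library, the mean ± SD of each group of 3 or 4 and the fitted 24 h cosine, blue for LFD and orange for HFD. The HFD means lie below the LFD means at all 18 matched points, and the peak of the LFD curve falls at ZT 13.6, 17.6 and 9.28 in the 3 panels.

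Cirbp had its clearest rhythm in LFD livers under Short light. There the libraries read 4.81, 5.11 and 5.04 at ZT4 and fell to 3.81, 3.83 and 3.32 at ZT8 and 3.65, 3.54, 3.51 and 3.84 at ZT12, with no overlap between ZT4 and either later time. The amplitude was 0.58 (SE 0.11), larger than that of 93.9% of all genes in the arm, and the cosine peaked at ZT 0.19 (SE 0.53 h, adjusted p = 0.000378), 2.24-fold above its trough. That peak falls before ZT4, the highest group, and a curve with an added cosine of 12 h peaked at ZT 2.55 (SE 0.85 h). HFD livers under Short light had 4.96, 4.56, 4.53 and 3.96 at ZT4 and 3.48, 3.61, 3.82 and 3.57 at ZT8, which do not overlap either. Their amplitude of 0.37 (SE 0.065) with a peak at ZT 22.6 (SE 0.80 h) did not pass (adjusted p = 0.0633), but did without replicates numbered 2 (0.0417) and without the 2 libraries farthest from their groups (0.0476). With an added cosine of 12 h the HFD peak moved to ZT 2.15, with a wide error (SE 9.58 h).

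Under Long light Cirbp was high in the hours when it was low under Short light. LFD livers held 5.16, 4.82, 4.42 and 4.86 at ZT8 and 3.83, 3.14 and 3.88 at ZT20, and all of the first were above all of the second. The amplitude was 0.47 (SE 0.090) and the peak fell at ZT 8.99 (SE 1.26 h, adjusted p = 0.00849). Without replicates numbered 2, which include a library at 2.99 among 4.96, 4.70 and 4.67 at ZT16, the amplitude was 0.33 and the call was lost (adjusted p = 0.180). HFD livers read 4.30, 4.41, 4.24 and 4.42 at ZT8, the highest group, against 3.72, 3.85 and 3.26 at ZT20, the lowest. The cosine with amplitude 0.27 (SE 0.059) and peak at ZT 8.0 (SE 0.88 h) did not pass (adjusted p = 0.206). With an added cosine of 12 h the HFD peak moved to ZT 4.45 (SE 0.73 h).

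Equal light gave no called rhythm of Cirbp in either diet. In LFD livers the group means lay between 3.82 ± 0.44 (SD, n = 4) at ZT16 and 4.33 ± 0.57 (SD, n = 3) at ZT4, and the libraries of those times, 3.97, 3.20, 4.22 and 3.89 against 4.76, 4.55 and 3.69, overlapped. The fitted amplitude was 0.17 (SE 0.12), near the median of 0.16 over all genes in that arm (adjusted p = 0.560), and ran from 0.13 to 0.39 with replicates left out in turn. HFD livers had 4.44, 4.30 and 4.57 at ZT8 and 3.05, 4.17, 3.99 and 4.27 at ZT20, with an amplitude of 0.26 (SE 0.12) and an adjusted p of 0.239, which reached 0.42 and 0.051 with replicates left out. The test could not tell a rhythm of that size from the spread between libraries over all arms. At ZT16 in HFD Equal light the values ran from 3.26 to 4.73 over 3 libraries.

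**Figure D2:**
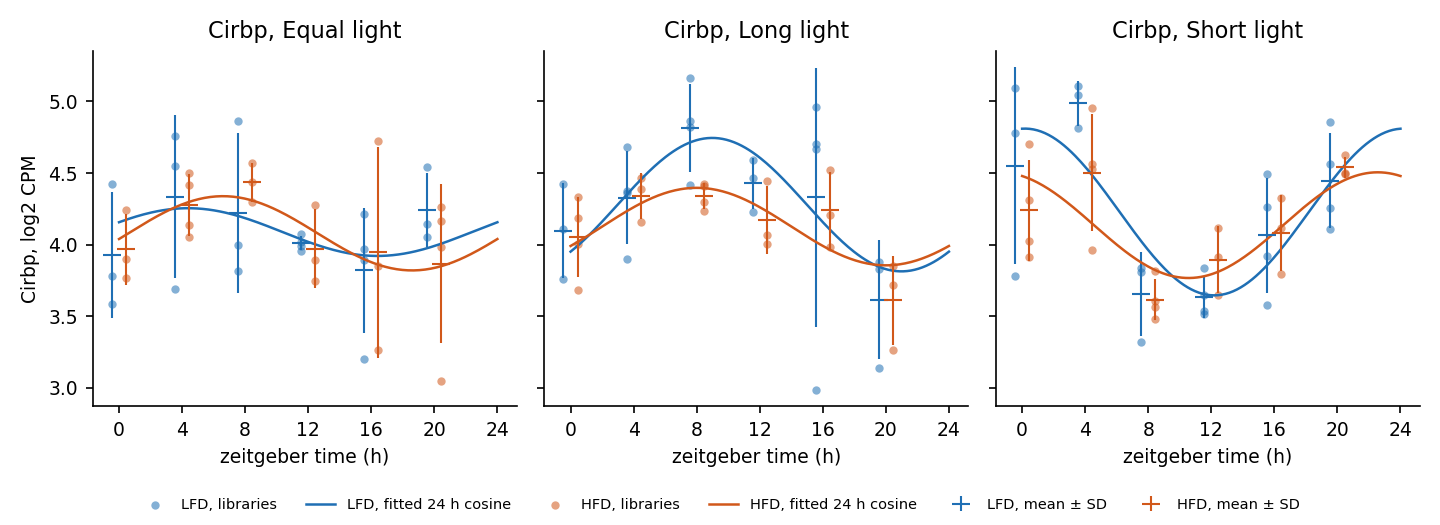
Cirbp level (log2 CPM) against zeitgeber time (h) in the 3 photoperiods, with a point per library, the mean ± SD of each group and the fitted 24 h cosine, blue for LFD and orange for HFD. Group means at ZT8 stand at 4.82 and 4.34 in Long light and at 3.65 and 3.62 in Short light, for LFD and HFD, and the lone point at 2.99 is an LFD library of Long light at ZT16.

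Whether the photoperiod changed the daily course was asked next, by an F test of the difference between the fitted curves, peak time and amplitude together. Between Long and Short light with both diets the curves differed for Cirbp (adjusted p = 3.09e-07) and for Rbm3 (adjusted p = 6.88e-11), in a comparison that called 52.9% of all genes. Within LFD the values were 2.09e-05 for Cirbp and 7.64e-06 for Rbm3, where 35.9% of genes were called. Within HFD they were 0.0118 and 2.24e-06, beside 28.9% of genes, and the Cirbp call there was lost without replicates numbered 3 (0.143) or 4 (0.0584), with an added cosine of 12 h (0.0604) and without the libraries rich in pancreas or muscle markers (0.0537). Both Long and Short light were also set against the same Equal light libraries. Long against Equal light changed Rbm3 (adjusted p = 0.000198) and did not pass for Cirbp (0.231), with 23.8% of genes called. Within HFD alone this contrast gave 0.00891 for Rbm3, where 7.01% of genes were called, a call lost without replicates numbered 1, 2 or 3 (0.0779 to 0.112). Short against Equal light passed for Cirbp (0.00497) and Rbm3 (0.00776), with 16.3% of genes called. Those called against Equal light over both diets lost their call with some replicates left out. Rbm3 in Long light lost it without replicates numbered 2 (adjusted p = 0.0613). In Short light Cirbp lost its call without replicates numbered 1 (0.0661) or 2 (0.0658), and Rbm3 without those numbered 1 (0.115) or 3 (0.155).

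Time by time, the contrast of Long with Short light over both diets turned sign within the day, and in opposite order for the 2 genes. At ZT8 Cirbp was higher in Long light by 0.94 (SE 0.19, adjusted p = 0.000123), while Rbm3 was lower by 0.46 on the log2 scale (SE 0.093, adjusted p = 0.000102), and 22.1% of genes were called. At ZT20 Cirbp was lower in Long light by 0.88 (SE 0.21, adjusted p = 0.00153) and Rbm3 higher by 0.44 (SE 0.10, adjusted p = 0.00104), with 14.5% of genes called. In HFD livers at ZT20 the Cirbp libraries of Short light read 4.50, 4.50 and 4.63, all above those of Long light, and in LFD livers they read 4.56, 4.86, 4.11 and 4.25, again all above Long light. Rbm3 was also lower in Long light at ZT4 (fell by 0.38, SE 0.097, adjusted p = 0.00288, 17% of genes called) and higher at ZT16 (0.32, SE 0.097, adjusted p = 0.0284, 7.28% of genes called). Without the libraries rich in pancreas or muscle markers these calls at ZT4 and ZT16 were lost (adjusted p = 0.0613 and 0.141), as they were without replicates of some numbers. For Cirbp the other 4 times did not pass, with differences from -0.41 at ZT4 to 0.54 at ZT12.

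Levels over the whole cycle showed no such difference. Long minus Short light was 0.01 for Cirbp (95% interval -0.15 to 0.18) and 0.01 for Rbm3 (-0.07 to 0.09), in a comparison that called 0 genes by limma and 402 at an unadjusted p under 0.05. Against Equal light, Long light gave 0.11 for Cirbp (-0.05 to 0.28) and 0.05 for Rbm3 (-0.03 to 0.13), with 0.0278% of genes called, and Short light gave 0.10 (-0.07 to 0.26) and 0.04 (-0.04 to 0.12), with 0.00695% called. None of these passed the test.

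Peak time was then read by itself, as the shift between 2 arms with a permutation test over 18 shifts. The permutations swap libraries of the 2 arms at each time, so the p takes level and amplitude as equal too, not peak time alone. Rbm3 peaked later in Long than in Equal light by 3.98 h in LFD (SE 0.86, adjusted permutation p = 0.00504) and by 5.01 h in HFD (SE 0.87, adjusted permutation p = 0.00504). It peaked earlier in Short than in Equal light, at -4.37 h in LFD (SE 1.17, adjusted permutation p = 0.0371) and -3.78 h in HFD (SE 1.02, adjusted permutation p = 0.0355). The full step from Short to Long light was 8.35 h in LFD (SE 1.11, adjusted permutation p = 0.00468) and 8.79 h in HFD (SE 0.79, adjusted permutation p = 0.0193). The shift from Equal to Short light in LFD did not pass without the libraries rich in pancreas or muscle markers (-3.32 h, adjusted permutation p = 0.208), whose part in it was not tested. Each of the 6 Rbm3 shifts lost its call when the replicates of at least 1 number were left out, with the adjusted permutation p reaching 0.0878, 0.0765, 0.378, 0.133, 0.0585 and 0.0855 in the order given. Such tests rest on fewer libraries, and all 6 shifts kept their sign in them. Taking the peak from a curve with an added cosine of 12 h kept the call of the LFD step from Short to Long light and the HFD shift from Equal to Short light, and lost the other 4.

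For Cirbp 3 of the 6 shifts passed, with wider errors. From Short to Long light its peak went later by 8.80 h in LFD (SE 1.36) and by 9.44 h in HFD (SE 1.19), each at an adjusted permutation p of 0.0371, although neither HFD arm had a called rhythm. Short light set it earlier than Equal light by a shift of -8.03 h in HFD (SE 1.66, adjusted permutation p = 0.0371), and by -4.19 h in LFD, which did not pass (SE 2.25, adjusted permutation p = 0.0775). Long against Equal light gave 4.61 h in LFD (SE 2.52, adjusted permutation p = 0.148) and 1.41 h in HFD (SE 1.70, adjusted permutation p = 0.579). Equal light is the arm in which no rhythm of Cirbp was called, so these last shifts start from a poorly defined peak. Without replicates numbered 2 the LFD shift from Equal to Long light was -12.0 h (SE 3.23, adjusted permutation p = 0.0294). That is the farthest apart that peaks can lie on a 24 h cycle, so no direction can be read from its sign. The LFD shift from Equal to Short light was then 1.99 h. The HFD shift from Equal to Long light was -2.05 h with an added cosine of 12 h. Of the 3 called Cirbp shifts, the LFD one lost its call without the replicates of any number and both HFD ones without those of 3 numbers. All 3 lost it with an added cosine of 12 h, and the HFD ones also without the libraries rich in pancreas or muscle markers (adjusted permutation p = 0.0909 and 0.0948).

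The shifts were set against those of 15 clock genes, over both diets. The clock genes moved on average by 4.64 h from Equal to Long light, by -3.66 h from Equal to Short light, and by 8.29 h from Short to Long light. Rbm3 moved by 4.50, -4.07 and 8.57 h, which differs from the clock mean by -0.14 (SE 0.56), -0.42 (SE 0.71) and 0.28 h (SE 0.65). Cirbp moved by 3.01, -6.11 and 9.12 h, differing by -1.63 (SE 1.47), -2.46 (SE 1.38) and 0.83 h (SE 0.87). Its rhythm was called in LFD Long and LFD Short light only, so these Cirbp values rest in part on poorly defined peaks. None of the 6 differences passed, each with an adjusted permutation p of 0.901. The permutations swap photoperiod labels within time and diet, so their null is no difference between photoperiods at all. They cannot judge whether a member moved apart from the clock genes. Single clock genes moved by 3.04 to 5.68 h, -6.04 to -2.19 h and 6.82 to 10.7 h in the same order. Cirbp lay just outside the first and second of these ranges, and Rbm3 lay within all of them. A p that misses the threshold does not show that the members and the clock genes moved alike.

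Within an arm the 2 genes peaked hours apart. Cirbp peaked before Rbm3 by 9.27 h (SE 2.30), 8.65 h (SE 1.27) and 9.09 h (SE 1.14) in LFD livers under Equal, Long and Short light, and by 4.33 h (SE 1.50), 7.93 h (SE 0.99) and 8.59 h (SE 1.21) in HFD livers. The peaks of Cirbp in LFD Equal light and in all 3 HFD arms rest on uncalled rhythms, and in LFD Equal light the difference turned to 8.01 h in the other direction without replicates numbered 2. Over the 36 group means the 2 genes correlated at r = -0.24, and over deviations of all libraries from their group means at r = 0.02, as descriptions over points that share libraries and depth.

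**Figure D3:**
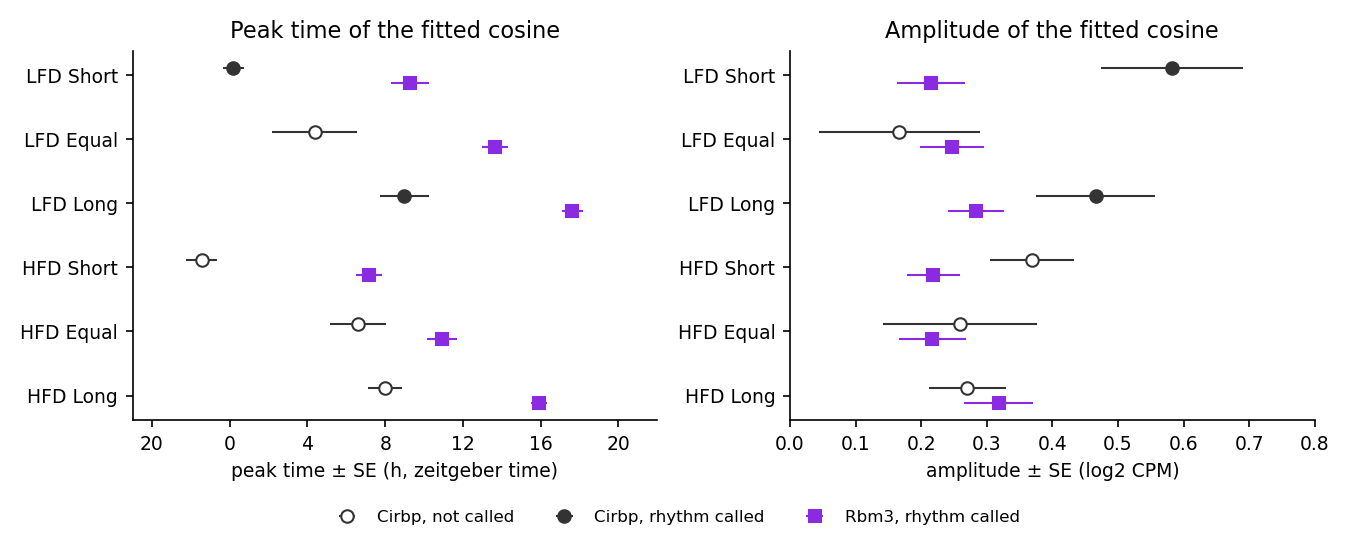
Peak time (h, zeitgeber time, left) and amplitude (log2 CPM, right) of the fitted cosine, with jackknife SE, for Cirbp (circles) and Rbm3 (squares) in the 6 arms, filled where the rhythm passed the test. In both diets the peaks run from Short through Equal to Long light, with Rbm3 from ZT 9.28 to 17.6 in LFD, and Cirbp lies to the left of Rbm3 in all 6 arms.

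Diet was compared by level and by rhythm. Rbm3 was lower on HFD: it had 4.14, 4.70 and 5.29 log2 CPM as lowest, median and highest of 61 HFD libraries against 4.49, 4.92 and 5.59 of 62 LFD libraries. The ranges overlap, but the HFD group mean lay below the LFD mean in 18 of 18 pairs of the same photoperiod and time, and in 5 of them no library overlapped. Such counts were made for Rbm3 and Cirbp only, so no share of all genes stands beside them. At equal weight of groups Rbm3 fell by 0.26 on the log2 scale (SE 0.033, 95% interval -0.32 to -0.19, adjusted p = 1.45e-09), in a comparison that called 25.5% of genes, with 12.6% lower on HFD. Leaving out replicates, libraries rich in pancreas or muscle markers, or changing the scaling kept the value between -0.25 and -0.27 with a call each time. Pancreas markers had a median of -0.86 in LFD and -2.22 in HFD libraries, and without the libraries rich in them or in muscle markers the Rbm3 difference was -0.27. Kupffer cell markers had medians of 5.01 and 5.26, and their part in the result was not tested.

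The lower Rbm3 level on HFD was called in each photoperiod. It was -0.27 in Equal light (SE 0.057, adjusted p = 0.000876, with 6.85% of genes called), -0.18 in Long light (SE 0.056, adjusted p = 0.0432, 4.86%) and -0.31 in Short light (SE 0.056, adjusted p = 8.80e-05, 6.88%). The call in Long light was lost when the replicates of any number were left out (adjusted p = 0.0507 to 0.219), under quantile normalization (0.0622) and without the libraries rich in pancreas or muscle markers (0.0846), and the one in Equal light without replicates numbered 1 (0.0655). By time of day it passed at ZT16 (-0.35, SE 0.079, adjusted p = 0.00443, 2.5% of genes called) and ZT20 (-0.32, SE 0.081, adjusted p = 0.0401, 0.597% called), and reached 0.179 and 0.566 there when replicates were left out, with the call at ZT20 also lost without the rich libraries (0.0984), under quantile normalization (0.0569) and with limma-voom (0.0514). The other 4 times gave -0.20 to -0.24 without passing. The pair with the widest gap was Short light at ZT16, where HFD libraries read 4.45, 4.64 and 4.60 and LFD libraries 4.76, 5.11, 5.04 and 5.59. Equal light at ZT20 came next, with 4.39, 4.48, 4.67 and 4.45 on HFD and 4.96, 4.88 and 4.93 on LFD.

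Cirbp did not pass for diet. Its lowest, median and highest values were 3.05, 4.16 and 4.96 in HFD and 2.99, 4.13 and 5.16 in LFD, with the medians within 0.38, the SD within a group. HFD minus LFD was -0.08 (SE 0.068, 95% interval -0.21 to 0.06, adjusted p = 0.424), the HFD mean was the lower in 11 of 18 pairs, and 0 pairs were without overlap. The Rbm3 value of -0.26 lies outside this interval, but the difference between the genes was not tested. The plot of matched groups shows Rbm3 below the line of equal values throughout and Cirbp on both sides of it.

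**Figure D4:**
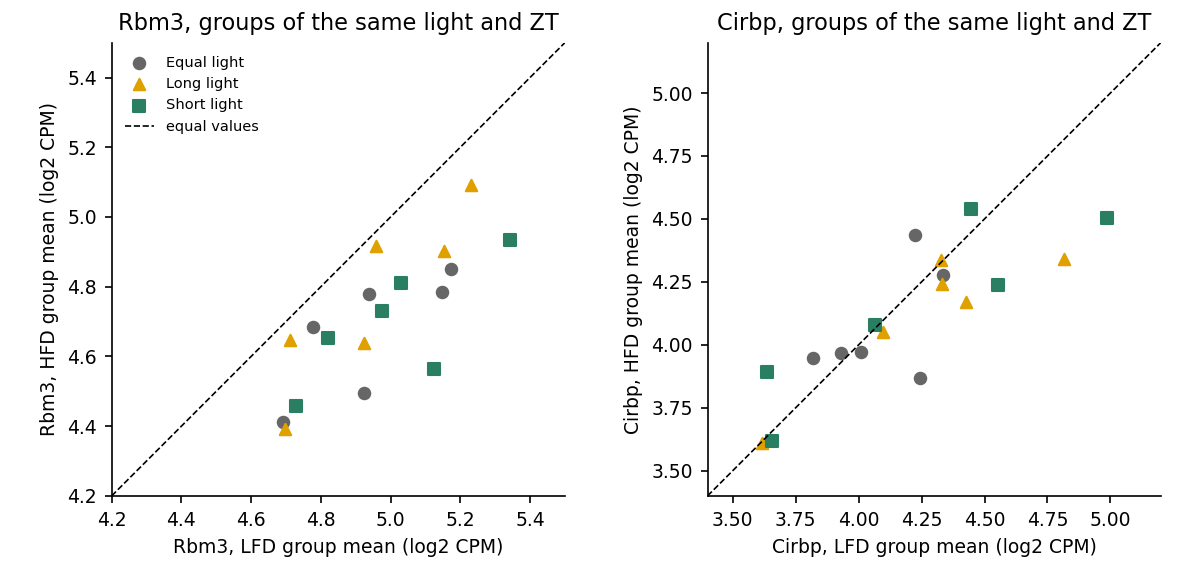
HFD group mean against LFD group mean (log2 CPM) of the 18 pairs of the same photoperiod and time, for Rbm3 (left) and Cirbp (right), with marker shape for photoperiod and a dashed line where both would be equal. All 18 Rbm3 pairs lie below the line, and 11 of 18 Cirbp pairs do.

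Neither gene's daily curve differed between diets by the test of the difference. Over all photoperiods the adjusted p was 0.9999 for both, in a comparison that called 0.00695% of genes, that is 1 gene by limma with 400 at an unadjusted p under 0.05. The amplitude of Cirbp was 0.47 and 0.58 in LFD against 0.27 and 0.37 in HFD under Long and Short light, and these differences were not called (adjusted p of 0.99995 and 0.993). Peak shifts of HFD against LFD were -2.73, -1.70 and -2.13 h for Rbm3 in Equal, Long and Short light (adjusted permutation p = 0.141, 0.141 and 0.455), none of which passed, and the last turned to 0.85 h with an added cosine of 12 h. Rbm3 also differed in level between diets, which the permutation test does not set apart from peak time. For Cirbp they were 2.21, -0.98 and -1.63 h (adjusted permutation p = 0.579, 0.679 and 0.214). Diet by photoperiod, tested on the rhythm, called 0 genes by limma, with 758 at an unadjusted p under 0.05, and gave 0.998 for both.

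Heat-inducible genes were read beside the cold-inducible pair, as 20 chaperones, co-chaperones and Hsf1 itself, all of which were in the table. Over the 36 group means all 20 correlated negatively with Cirbp, at a median r of -0.75 (range -0.90 to -0.41), where the median over all 14396 other genes was -0.005 with 50.4% negative. With Rbm3 the median r was 0.17 and 3 of 20 were negative, where all genes had a median of -0.02. These are descriptions over groups that share photoperiod, time and the same libraries, and genes are not replicates.

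Hsph1, a large co-chaperone of the Hsp70 system, was the second most opposite to Cirbp of 9982 genes ranked (r = -0.90). In LFD livers under Short light its group mean was lowest at ZT4, 4.46 ± 0.38 (SD, n = 3), where Cirbp was highest at 4.99, and highest at ZT12, 7.08 ± 0.34 (SD, n = 4), where Cirbp was lowest at 3.64. Under Long light in LFD, Hsph1 was lowest at ZT8, 4.95 ± 0.48 (SD, n = 4), and highest at ZT20, 7.40 ± 0.59 (SD, n = 3), the times at which Cirbp stood at 4.82 and 3.62. Its cosine peaked at ZT 16.9, 21.2 and 12.2 in LFD and ZT 18.1, 20.8 and 12.8 in HFD under Equal, Long and Short light, with amplitudes of 0.58 to 1.08, called in 5 arms. Hspa1b and Hspa1a, the inducible Hsp70 genes, had mean amplitudes of 0.91 and 0.90 and were each called in 3 arms. They are near-identical copies between which reads may be split, and Hspa1a averaged only -1.14 log2 CPM.

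Of the 20 heat-inducible genes, 8, 14 and 18 were called rhythmic in LFD under Equal, Long and Short light, and 8, 15 and 3 in HFD. Over all genes the shares called in these arms were 20.9%, 23.6% and 27.1%, and 16.5%, 21.8% and 14.1%, so that the 3 of 20 in HFD Short light lie near the background. Median amplitudes ran from 0.29 to 0.51 over the arms, against 0.14 to 0.17 for all genes. The curve differed between Long and Short light in 19 of them, all except Hspa4, where 52.9% of all genes were called. The diet comparison called 2 higher on HFD, Dnaja1 (0.13, SE 0.052, adjusted p = 0.0469) and Hspa4 (0.09, SE 0.028, adjusted p = 0.00899), and 0 lower, with a list median of -0.03, in a comparison that called 25.5% of all genes. The list was chosen with results of these data known, and its counts stand as a description.

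The same opposition of Cirbp and heat-inducible genes was seen among libraries of 1 group, where diet, photoperiod and time are the same. Deviations of all 61 HFD and 62 LFD libraries from their group means were correlated gene by gene. All 20 heat-inducible genes were negative with Cirbp, at a median r of -0.57, while all genes had a median of -0.007 with 51.2% negative. Ranked from the most negative of 14396 genes, Chordc1 was at 1 (r = -0.75), Hsp90aa1 at 4 (-0.71), Hsph1 at 5 (-0.69), Cacybp at 11 (-0.66) and Dnaja1 at 13 (-0.65). These encode a chaperone partner of Hsp90, an inducible Hsp90, the Hsp70 co-chaperone, a calcyclin-binding partner of ubiquitin ligases and an Hsp40. Hsf1 itself was at -0.02, beside the all-gene median.

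With Hsph1 the within-group r of Cirbp was -0.78 in LFD and -0.56 in HFD, and -0.71, -0.80 and -0.53 in Equal, Long and Short light. Leaving out the 2 libraries farthest from the median of Hsph1 gave -0.62. Rbm3 had a within-group r of -0.02 with Hsph1 over all libraries, made of -0.38 in Equal, 0.24 in Long and 0.02 in Short light, and a median of -0.03 with the 20 genes, 13 of them negative. Depth had an r of -0.14 with Cirbp and 0.03 with Rbm3 in the same terms. All points come from the same libraries, so that anything that sets a liver apart from its group enters both genes, and handling of the animals or tissue is not recorded in the labels and was not tested.

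**Figure D5:**
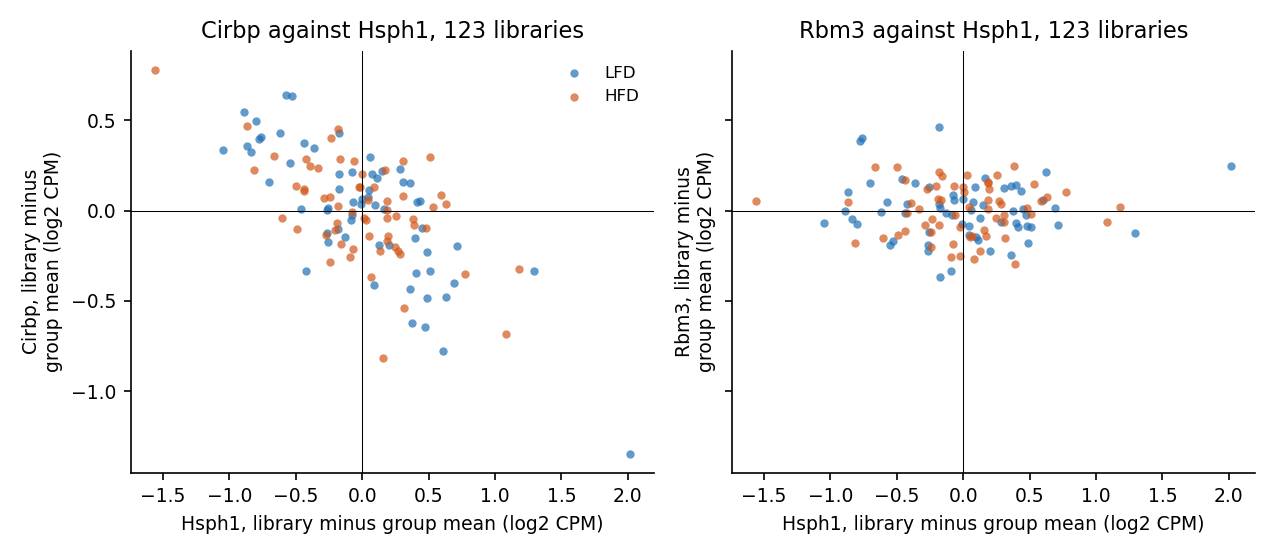
Each library by its Hsph1 level minus the group mean (horizontal axis, log2 CPM) and its Cirbp (left) or Rbm3 (right) level minus the group mean (vertical axis, log2 CPM), blue for LFD and orange for HFD. Cirbp falls as Hsph1 rises (r = -0.69) and Rbm3 has an r of -0.02 over all libraries (-0.38 in Equal and 0.24 in Long light), and the point at the lower right is the LFD library of Long light at ZT16 with Cirbp at 2.99 and Hsph1 at 7.61.

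A list of 11 genes tied to Cirbp and Rbm3 by bound transcripts, by sequence relation or by temperature-sensitive splicing was also read. Clock, whose transcript Cirbp protein binds, was rhythmic in all 6 arms with amplitudes of 0.62 to 0.74 and peaks at ZT 20.7, 1.13 and 18.1 in LFD and ZT 19.96, 23.9 and 17.3 in HFD under Equal, Long and Short light. Clk3, a kinase of splicing factors, was called in 4 arms (amplitudes 0.15 to 0.24), and its relatives Clk1 and Clk4 in LFD Short light alone (0.22 and 0.24). Clk2, Rtn3, Txn1, Rbmx, Rbmxl1, Rbm4 and Rbm4b were called in 0 arms. Between 1 and 3 of the 11 genes were called per arm, beside 14.1% to 27.1% of all genes.

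Between diets 4 of the 11 were called, in a comparison that called 25.5% of all genes. Rbmx, an X-linked relative of Rbm3 that binds RNA in splicing, fell by 0.13 on the log2 scale on HFD (SE 0.026, adjusted p = 6.25e-05), Clk4 by 0.12 (SE 0.034, adjusted p = 0.00454) and Clk2 by 0.07 (SE 0.024, adjusted p = 0.0254). Txn1, thioredoxin, rose by 0.06 (SE 0.020, adjusted p = 0.0254). Rbm4 and Rbm4b stood at -0.16 (adjusted p = 0.0713) and -0.08 (0.0622), and Rtn3, whose translation Rbm3 protein raises in neurons, at -0.0004 (0.991). Rbmxl1, Clock, Clk1 and Clk3 lay between -0.06 and 0.01 without passing.

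Genes most like each member were ranked by Pearson r over the 36 group means, among 9982 genes with a mean of at least 2 log2 CPM. Nearest to Cirbp were Ift46 (r = 0.87), a subunit of intraflagellar transport, Tigd2 (0.86), Lrrc29 (0.86), Elmo3 (0.86), an engulfment and cell motility protein, and Ccdc9 (0.85). Most opposite were Nf2 (-0.91), which encodes merlin, Hsph1 (-0.90), Ncbp1 (-0.90), the large subunit of the nuclear cap-binding complex, Ube2f (-0.89), a NEDD8-conjugating enzyme, and P4ha1 (-0.89), a collagen prolyl hydroxylase subunit. Nearest to Rbm3 were C2 (0.92), a complement component, Rps13 (0.89) and Rpl17 (0.88), ribosomal proteins, Hopx (0.89) and Ncl (0.88), nucleolin. Most opposite to it were Igsf11 (-0.91), Dhx32 (-0.91), a helicase-like protein, Pdss2 (-0.89), of coenzyme Q synthesis, Snx32 (-0.88), a sorting nexin, and Laptm4b (-0.88), a lysosomal membrane protein. Rbm3's nearest genes were called rhythmic in 2 to 5 arms and those of Cirbp in 1 to 5.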

How the data were processed

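The authors deposited 1 table of log2 CPM values for 15398 genes and 123 libraries. Per the labels' protocols, poly-A RNA purified with Trizol and RNeasy columns was made into stranded libraries. Reads were aligned to or counted on mm10 (GRCm38) with tools that include featureCounts, STAR and Subread 1.6.2, per the submitters' processing notes, and no source used here gives the normalization or counting options. The floor of -3.61, equal in all libraries, fits a prior of 2.0 reads, and the deposited values then gave whole reads within 0.05 read for 99.4% to 99.7% of values, which set the depths.

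The 14397 genes with at least 1 CPM in 3 or more libraries were fitted with limma 3.58.1 (R 4.3.3), with a variance trend, all groups in one fit, and Benjamini-Hochberg adjustment at 0.05. Rhythm used a cosine and sine of 24 h per arm, levels 1 mean per group. Peak shifts used 100000 two-sided permutations of arm labels within time, clock differences 10000, and a jackknife for SE. The scripts were tested on simulated data. Named genes are the 2 members, the 5 most and 5 least like each, the 3 heat-inducible genes of largest amplitude and all 11 tied genes. Other genes named were chosen after their values were seen. The members and lists were chosen with earlier results of these data known. The contrasts of Long with Short light at each time and the within-group correlations were added after values were seen. Columns matched samples by title, and replicate numbers are in accession order.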

Additional observations from a re-analysis of the deposited data

Results flagged for a closer look

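In LFD livers under Long light at ZT16, Cirbp stood at 2.99 log2 CPM in replicate 2, while the other 3 libraries lay between 4.67 and 4.96, and the gap was 0.851 of the range of the group. Rbm3 was 5.48 in that library, above 5.06 to 5.22 in the others. Hsph1 was 7.61 against 4.54 to 5.15, Hspa1b 4.90 against 1.38 to 2.01, and Hsp90aa1 8.46 against 5.65 to 5.92. The library was not among those rich in pancreas or muscle markers, held 28.4 M reads, and ranked the third of all libraries by its distance from its group over all genes. It was the only one flagged in 30 checks, of 2 genes in the 15 groups of 4. Such a rule flags about 1 check in 20 by chance alone, so the count of flags by itself cannot judge this library. Why it differs from its group was not tested. The part of this library in the Cirbp results was not tested beyond leaving out replicates numbered 2.

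Daily curves that differed between photoperiods by the test of the difference itself were flagged 10 times. Between Long and Short light the adjusted p of limma was 3.09e-07 for Cirbp and 6.88e-11 for Rbm3 over both diets, 2.09e-05 and 7.64e-06 in LFD, and 0.0118 and 2.24e-06 in HFD. Against Equal light over both diets, it was 0.000198 for Rbm3 in Long light, 0.00497 for Cirbp in Short light and 0.00776 for Rbm3 in Short light. Within HFD, Rbm3 in Long against Equal light gave 0.00891, where 7.01% of genes were called.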

How the results depend on the processing

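No paired analysis was possible because the titles carry no replicate numbers, and those used here follow accession order. Recomputed tests counted as unchanged if they stayed on their side of the threshold, called or not, with levels and peak shifts also keeping their sign. Peak times, and those of Cirbp minus Rbm3, counted as unchanged within their SE, and correlations if r moved little. Of the values that answer a comparison as a whole, 551 were unchanged, 49 lost a call, 3 gained one, 24 changed sign and 11 moved beyond their error. Of those for single times, single diets or photoperiods, peak times and correlations, 721 were unchanged, 29 lost a call, 6 gained one, 14 changed sign and 22 moved. TMM factors were not computed, and quantile normalization moved the all-gene median between diets from -0.004 to 0.002. Amplitudes fell or rose with the replicates left out in turn: Cirbp in LFD Long light ran from 0.33 to 0.59 and in HFD Short light from 0.30 to 0.44, Rbm3 in LFD Short light from 0.17 to 0.27, HFD Equal light from 0.17 to 0.27 and HFD Short light from 0.21 to 0.23. With cosines of 24 h and 12 h the Rbm3 amplitudes of HFD Equal and Short light were 0.22 and 0.22 (adjusted p = 0.0540 and 0.0545), and with free means 0.22 and 0.24 (0.0786 and 0.0800). Cirbp in HFD Short light passed at 0.37 without the 2 libraries farthest from their groups (0.0476). Size of the difference between curves ran from 0.21 to 0.33 for Rbm3 in Long against Equal light, and in Short against Equal light from 0.44 to 0.57 for Cirbp and 0.18 to 0.27 for Rbm3.

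Cirbp between diets, never called, ran from -0.155 to 0.031 with replicates left out. In Equal light it ran from -0.0859 to 0.116, at 0.0113 under quantile normalization and 0.000556 without the 2 farthest libraries, in Short light from -0.264 to 0.0166. By time it ran from -0.384 to 0.163 (ZT0), -0.27 to 0.0529 (ZT8), -0.143 to 0.056 (ZT12, 0.00285 under quantile normalization), -0.349 to 0.167 (ZT16) and -0.228 to 0.0149 (ZT20, 0.0858 without rich libraries). Long minus Short light ran from -0.0395 to 0.101 for Cirbp (-0.0649 without rich libraries) and from -0.0224 to 0.0328 for Rbm3 (-0.0163 to 0.0947 at ZT0).

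Peak shifts (h) between diets ran, with replicates left out, from -1.93 to 7.30 for Cirbp in Equal light and from -2.46 to 0.36 in Long light. Long minus Equal light ran from -12.0 to 4.37 (LFD) and -0.0687 to 2.82 (HFD) for Cirbp, and 3.11 to 4.95 and 4.67 to 5.52 for Rbm3. Short minus Equal light ran from -6.59 to 1.99 and -10.7 to -6.59 for Cirbp, and -5.15 to -2.32 and -4.45 to -3.21 for Rbm3. Long minus Short light ran from 8.30 to 10.03 and 8.46 to 10.6 for Cirbp, and 7.26 to 9.33 and 8.20 to 9.61 for Rbm3. With the peak of a 24 h plus 12 h curve the diet shifts were -0.30 (Cirbp, Equal light) and 0.85 (Rbm3, Short light). The same curve gave Rbm3 3.20 and 2.30 (Long minus Equal, LFD and HFD), -7.45 (Short minus Equal, LFD) and 8.4 (Long minus Short, HFD). For Cirbp it gave -2.05 and -4.35 (Long and Short minus Equal, HFD), 6.05 and 2.30 (Long minus Short, LFD and HFD). Quantile normalization gave -4.23 for Rbm3 (Short minus Equal, LFD). Without rich libraries Rbm3 gave -3.32 there, and Cirbp -7.51 (Short minus Equal, HFD) and 9.51 (Long minus Short, HFD).

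Against the clock, with replicates left out, the differences were -2.56 to 2.25 (Long minus Equal), -3.80 to 0.98 (Short minus Equal) for Cirbp and -1.001 to 0.58, -1.04 to 0.66 and -0.16 to 1.10 (Long minus Short) for Rbm3. Without rich libraries Rbm3 gave 0.457 and 0.0546, and the 24 h plus 12 h curve gave -4.12 for Cirbp (Long minus Short). Cirbp minus Rbm3 peaks ran from -9.03 to 8.01 (Equal), -9.21 to -7.08 (Long) and -10.2 to -8.18 (Short) in LFD livers, and -5.77 to -1.57, -8.47 to -6.31 and -9.98 to -7.33 in HFD, or -4.05 (LFD Short), -7.05, -11.4 and -5.30 (HFD Equal, Long, Short) by the 24 h plus 12 h curve. The cause of each change was not tested beyond fewer libraries. Median r of the heat-inducible genes with Cirbp within groups ran from -0.65 to -0.41. Cirbp rests on 175 to 1038 reads a library and Rbm3 on 323 to 1221.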
